A study of Mus musculus with 9 samples.

Results

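Open chromatin was compared between mouse bone marrow dendritic cells carrying HP109, the retroviral vector with a hairpin RNA against Pcgf6, and cells carrying LMP8, the control for that vector. The comparison took every peak that the authors called for these vectors on chromosomes 1 to 19 and X. It held 170077 peaks for HP109 and 140716 for LMP8, which merge into 177288 regions of the 194733 found with all 4 vectors of the series. The other 2 vectors were OE, which overexpresses Pcgf6, and its control mi8. All cells came from C57Bl/6 marrow, were cultured in GM-CSF, a growth factor for myeloid cells, at 20 ng/mL over 9 days, were transduced on day 2, and were sorted for CD11c and the human CD8 reporter before nuclei were taken. The knockdown therefore rests on 1 hairpin vector, and the labels do not state how far it lowered Pcgf6. Each vector had 2 libraries, 4 of the 9 in the series for the comparison here, but 1 peak list per vector stands for both. There is no spread between libraries to test against, so every difference below is a description of 2 lists, with no p-value.

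Pcgf6 is the subunit that defines PRC1.6, a Polycomb repressive complex that binds DNA through partners such as E2f6, Mga and Max and is best known for keeping germline genes silent. ATAC-seq cuts accessible DNA with a transposase, and a peak marks an interval with more cuts than its background. In dendritic cells, accessible promoters and enhancers include those of antigen presentation, cytokine and interferon-response genes. A change in the mix of sorted cells and a change within each cell cannot be told apart in such bulk libraries.

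The regions that carry the comparison are ones where a peak was called in 1 list and nothing overlapping it in the other. Promoter sequences of 3 genes in that state are shown as examples, chosen after their values were seen: Ifi44, an interferon-induced gene with a peak in the control list, and Cd5l, a secreted macrophage scavenger protein, and Sema4a, a semaphorin of dendritic cells, with a peak in the knockdown list and in no other. Each is the RefSeq window (GRCm38.p6, the assembly of mm10) from 250 bases before to 50 after an annotated start, read 5′ to 3′ on the gene's strand, and capitals mark the bases under the peak.
Ifi44 (chr3:151749861-151750160, minus strand): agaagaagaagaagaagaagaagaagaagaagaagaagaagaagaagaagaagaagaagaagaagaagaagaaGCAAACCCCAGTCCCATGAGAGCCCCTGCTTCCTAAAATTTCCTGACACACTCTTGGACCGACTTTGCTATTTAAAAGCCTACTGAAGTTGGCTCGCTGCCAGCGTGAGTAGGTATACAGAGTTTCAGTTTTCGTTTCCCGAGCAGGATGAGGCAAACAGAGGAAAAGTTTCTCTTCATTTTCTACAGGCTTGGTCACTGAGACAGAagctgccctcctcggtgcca
Cd5l (chr3:87357631-87357930, plus strand): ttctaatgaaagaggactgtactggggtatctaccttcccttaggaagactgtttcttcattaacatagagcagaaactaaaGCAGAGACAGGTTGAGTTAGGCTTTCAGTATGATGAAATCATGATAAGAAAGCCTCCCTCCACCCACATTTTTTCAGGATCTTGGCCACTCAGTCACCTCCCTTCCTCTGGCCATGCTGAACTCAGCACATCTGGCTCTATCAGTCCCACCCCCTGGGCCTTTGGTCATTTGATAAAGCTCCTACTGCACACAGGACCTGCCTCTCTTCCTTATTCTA
Sema4a (chr3:88458835-88459134, minus strand): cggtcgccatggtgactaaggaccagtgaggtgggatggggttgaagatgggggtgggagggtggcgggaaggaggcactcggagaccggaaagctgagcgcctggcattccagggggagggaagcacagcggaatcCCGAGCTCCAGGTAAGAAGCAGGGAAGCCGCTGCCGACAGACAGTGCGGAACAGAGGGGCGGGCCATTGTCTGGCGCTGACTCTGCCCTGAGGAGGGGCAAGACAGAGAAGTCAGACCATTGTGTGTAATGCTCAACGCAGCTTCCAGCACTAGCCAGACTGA

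The Ifi44 window had a −log10 q of 8.62 in LMP8, with 15 reads at the summit, and 24.6 in mi8, and no peak in HP109 or OE. At Cd5l the HP109 value was 13.8 with 22 reads, and at Sema4a it was 14.1 with 20 reads. The one-sided state is that of the printed windows, and other annotated starts of the same genes can differ. Values of −log10 q and fold were set by the authors for each peak and state how far the summit stood above the local background set from the input library. Reads at a summit were recovered from these columns, as described under the processing.

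The labelled cell type was checked at gene ends, defined as 1000 bp on each side of either end of a gene span. Of 12 dendritic cell markers, 11 had an end peak in both lists, and Ccr7, the receptor of mature migrating cells, had none in either. Itgax, which encodes the sorting marker CD11c, had a −log10 q of 95.2 in HP109 and 51.2 in LMP8. Markers of other cell types had end peaks too. End peaks were found in HP109 and LMP8 at 17 and 17 of 18 macrophage markers, 12 and 10 of 22 granulocyte and mast cell markers, 14 and 11 of 25 lymphoid and plasmacytoid markers, 10 and 8 of 15 erythroid and megakaryocyte markers, and 11 and 9 of 15 stromal markers. The defining T cell gene Cd3e had none in either list, and neither had the neutrophil genes Mpo and Ly6g. An end peak was common in general, at 14078 (HP109) and 13651 (LMP8) of all 21631 protein-coding genes. The marker counts therefore do not by themselves show which cells were present. The part of other cells in the results below was not tested.

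Most regions, 125278 of 177288 (70.7%), were open with both vectors, while 40675 (22.9%) were in the HP109 list alone and 11335 (6.39%) in the LMP8 list alone. As a share of each list, 23.9% of HP109 peaks (exact 95% interval 23.7 to 24.1) had no overlapping LMP8 peak, and 8.06% of LMP8 peaks (7.91 to 8.20) had no overlapping HP109 peak. These intervals cover counting error only. The HP109 list also had the stronger signal throughout: shared peaks had a median of 28 reads at the summit and a fold of 10.5, against 20 reads and 7.43 in LMP8. The smallest background was alike, 1.35 reads in HP109 and 1.42 in LMP8, and the weakest peaks in either list had 6 reads. When the HP109 list was shortened to its 140716 strongest peaks, 21263 HP109 and 20171 LMP8 peaks had no counterpart, and an equal length in itself favours such a balance.

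Absence from the other list was mainly a matter of strength. Peaks in 1 list only had medians of 12 reads in HP109 and 10 in LMP8, and were narrow, with median widths of 129 and 122 bp against 266 and 246 bp for shared peaks. Among the weakest twentieth of HP109 peaks, 71.9% had no LMP8 counterpart, and in LMP8 the weakest twentieth had none in 40.1%. The strongest peaks without a counterpart had a −log10 q of 48.0 in HP109 and 16.1 in LMP8, and every stronger peak had one. To look past this general difference, each list was split into 20 equal bins of −log10 q, and the share absent in a peak's bin served as its expected chance of absence. A ratio of observed to expected above 1 then means more one-sided peaks than peaks of that strength had on average, and no test stands behind it.

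**Figure D1:**
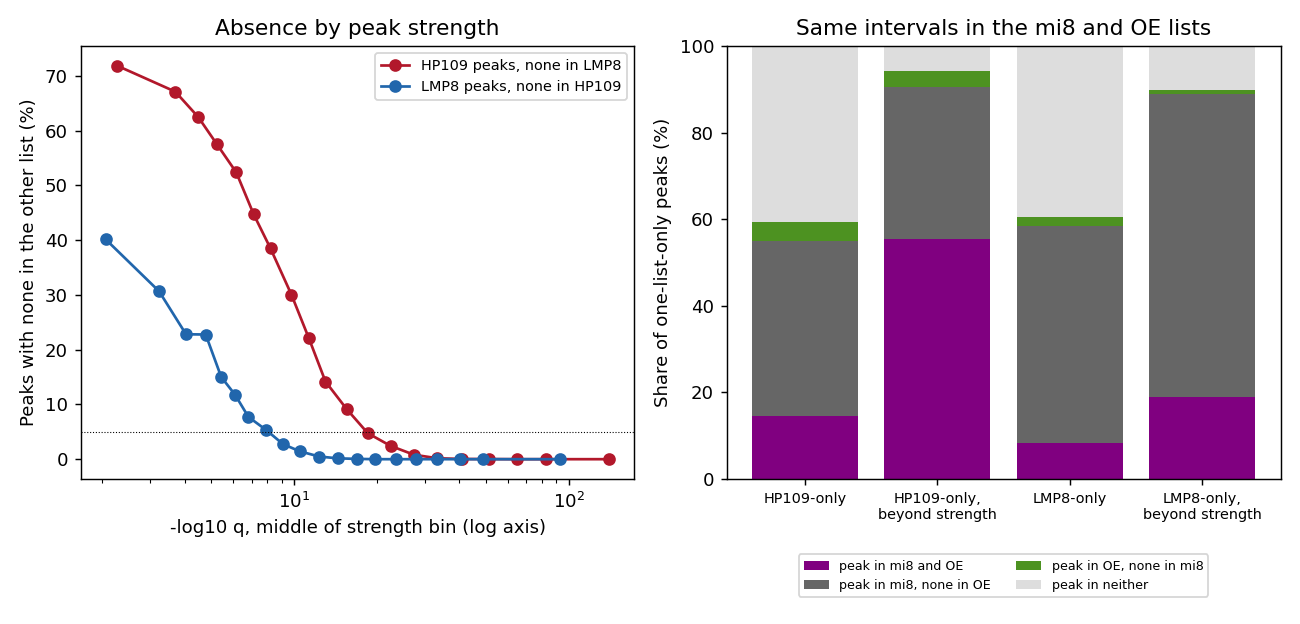
Left, the percentage of peaks with no overlapping peak in the other list in each of 20 strength bins, against −log10 q on a log axis, for HP109 (red) and LMP8 (blue). The dotted line marks 5%. Right, the percentage of HP109-only and LMP8-only peaks, in all and among those absent in bins under 5%, that had a peak in the mi8 list, the OE list, both or neither. The share falls from 71.9% to 0 in HP109 and from 40.1% to 0 in LMP8, and 5.71% of the 700 strong HP109-only peaks had no peak in either other list.

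Peaks that were absent although fewer than 5% of their bin were absent are the clearest single intervals. There were 700 in HP109 (0.412% of its peaks) and 345 in LMP8 (0.245%). The lists of mi8 and OE, which did not enter the choice, give a separate view of them. The OE list was the shortest of the series, with 111488 peaks, and the mi8 list had 170946. Of the 700, 633 (90.4%) had a peak in mi8 and 415 (59.3%) in OE, and 40 had one in neither. Of the 345, 307 (89.0%) had a peak in mi8, 68 (19.7%) in OE and 35 in neither. Shared peaks of the same bins were in mi8 for 99.9% in both lists, and in OE for 94.6% (HP109) and 90.5% (LMP8). So most of the strong HP109-only intervals were open in mi8, a vector that carries no hairpin against Pcgf6, and these are intervals that the LMP8 list lacked. The shares in OE, 19.7% and 59.3%, are of peaks of unlike strength, since the 345 lay in bins that start at a −log10 q of 8.59 and the 700 in bins that start at 16.9. At like strength the gap was smaller. In the bins from 8.79 to 10.8 and from 10.8 to 11.9, 28.1% and 33.0% of HP109-only peaks had a peak in OE, and in the LMP8 bins from 8.59 to 9.62 and from 9.62 to 11.4 the shares of LMP8-only peaks were 21.5% and 17.8%. Over all peaks in 1 list only the shares in OE were 10.4% for LMP8 (interval 9.85 to 10.98) and 19.1% for HP109 (18.7 to 19.5), and in mi8 they were 58.4% and 54.9%.

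The largest excess of one-sided peaks in a gene was at Fn1, which encodes the matrix protein fibronectin. Of the 56 HP109 peaks inside the span (chr1:71585473-71653280), 53 were absent from LMP8 where 29.7 were expected. LMP8 had 3 peaks there, mi8 had 3 and OE had 1, so HP109 alone was dense. The 53 were weak peaks in a tight row, with 11 reads at the median summit, a median −log10 q of 5.04 and a highest of 23.7, and 52 of them had no counterpart in mi8 or OE either. They continued beyond the gene. Atic, an enzyme of purine synthesis next to Fn1, had 17 of its 19 HP109 peaks in this list only (9.09 expected), and LMP8, mi8 and OE had 3, 4 and 3 peaks. The longest uninterrupted run of HP109-only peaks in the genome, 34 in 30.4 kb at chr1:71584970-71615332, lay here. Beyond it the excess ended: in the 100 kb step that starts at 71.7 Mb, 4 of 18 HP109 peaks were absent from LMP8 (2.51 expected), and in the step from 71.4 Mb the list had no peak.

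**Figure D2:**
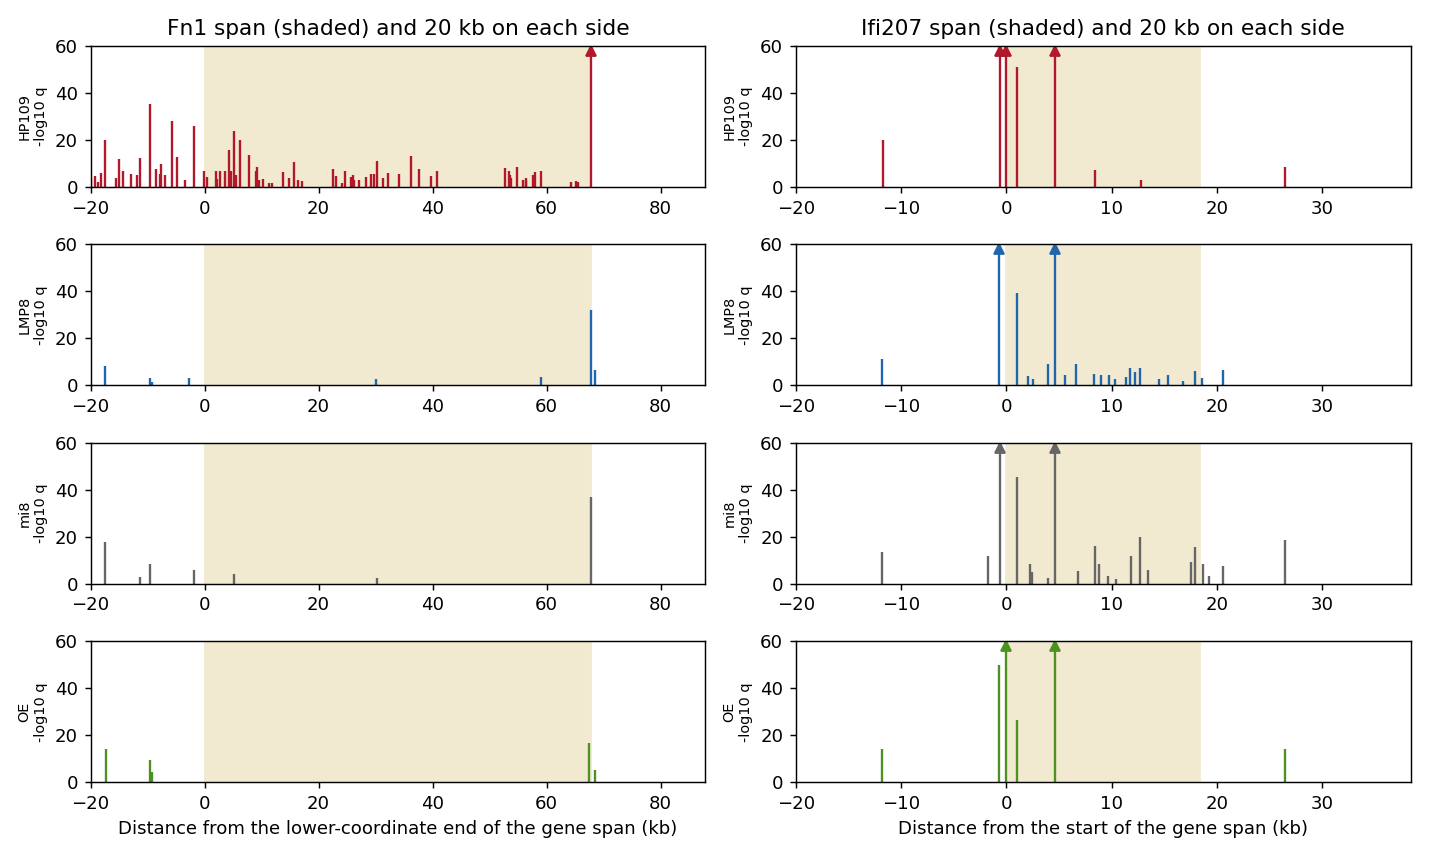
Peaks called with each vector (rows HP109, LMP8, mi8, OE) at Fn1 (left) and Ifi207 (right), by distance in kb from the lower-coordinate end of Fn1, whose strand the gene table does not give, and from the start of Ifi207. Bar height is −log10 q, triangles mark peaks above 60, and shading marks the gene span. Fn1 holds 56 peaks in HP109 and 3 in LMP8, and Ifi207 holds 19 in LMP8 and 4 in HP109.

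Over all 21631 protein-coding genes, 45 (0.208%) held at least 5 more HP109-only peaks than expected inside their span, and 6 held at least 10 more. Besides Fn1 those 6 were Cdh23, an atypical cadherin, with 37 of 84 peaks absent from LMP8 (24.1 expected), Plxdc2, a plexin-domain membrane protein, with 55 of 109 (42.6), Esr1, the oestrogen receptor alpha gene, with 26 of 46 (14.2), Slc7a11, the cystine importer, with 35 of 66 (24.0), and Syne1, the nuclear envelope protein nesprin-1, with 35 of 73 (24.3). Next came Tcof1, a nucleolar protein, with 24 of 34 (14.4), Sarnp, a factor of mRNA export, with 27 of 34 (17.8), and Sfi1, a centrosome protein, with 14 of 20 (5.15). The remaining genes among the 15 of largest excess were Arhgap10 (20 of 50), Tenm4 (29 of 81), Palld (22 of 54), Pde4d (43 of 156) and Atxn7l1 (16 of 39), besides Atic.

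These genes were not alike in their other values. Fn1, Atic and Sarnp were short, dense and nearly empty elsewhere: Sarnp had 34 peaks in HP109, 7 in LMP8, 8 in mi8 and 1 in OE, and 23 of its 27 HP109-only peaks were in no other list. Tcof1 differed, since mi8 had 27 peaks against 34 in HP109, 10 in LMP8 and 2 in OE. Slc7a11 was nearly as dense in mi8 (61) as in HP109 (66) and sparser in LMP8 (35) and OE (40). At Esr1 and Sfi1 the HP109-only peaks stood on a high input background, with medians of 22.2 and 26.6 reads against 1.56 over all HP109 peaks, and had 58.5 and 71.5 reads at the median summit. Only 0.595% of HP109-only peaks had a background above 10 reads, and in LMP8 none did. The part of that background in the Esr1 and Sfi1 counts was not tested.

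**Figure D3:**
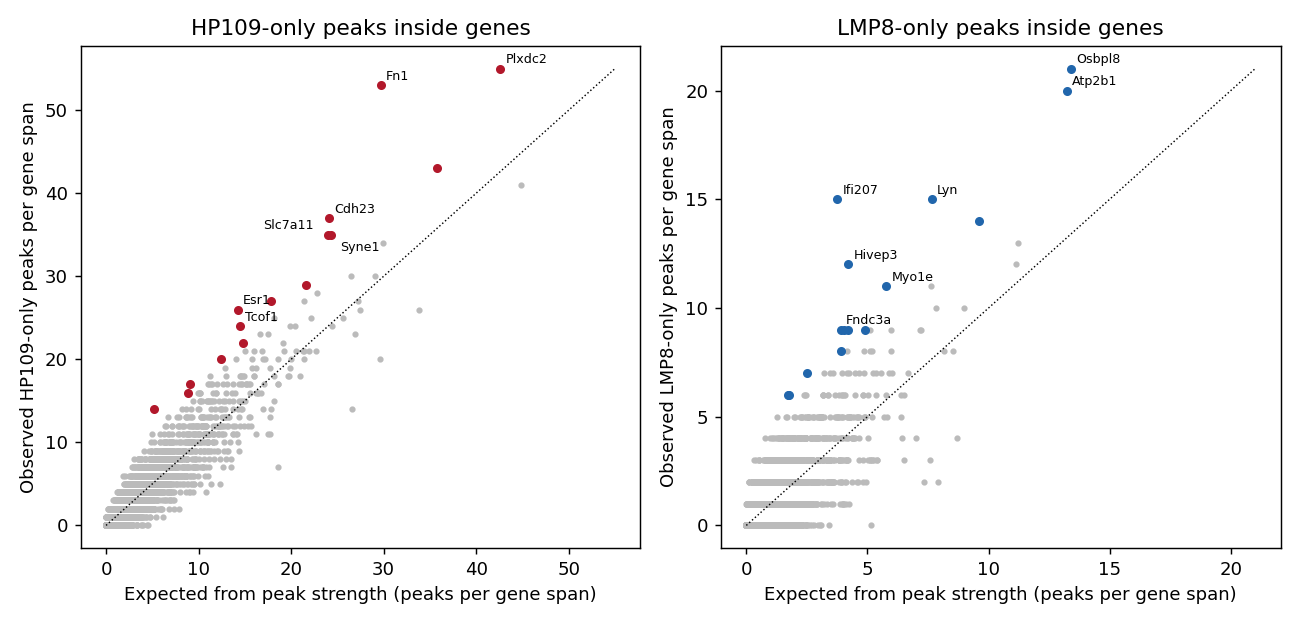
Each point is a protein-coding gene: the number of peaks inside its span in 1 list only (y) against the number expected from peak strength (x), for HP109-only (left) and LMP8-only peaks (right). The dotted line marks equality. The 15 genes of largest excess are coloured, and the first 7 named. Fn1 lies at 53 against 29.7, and Ifi207 at 15 against 3.76.

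Some genes held fewer HP109-only peaks than expected, 20 of them by at least 5 and 2 by at least 10. Cd44, the hyaluronan receptor, had 14 where 26.5 were expected, although HP109 and LMP8 had nearly equal numbers of peaks in the gene, 63 and 61. Plek, the platelet and leukocyte protein pleckstrin, had 7 where 18.6 were expected, with 47 and 49 peaks. Atp2b1, a calcium pump of the plasma membrane, had 20 where 29.6 were expected, and Osbpl8, a lipid-transfer protein, 26 where 33.9 were. Cdk6, Immp2l, Picalm, Abtb2, Med12l and Mef2c followed, with 4 to 11 HP109-only peaks each. At these loci the peaks of HP109 were matched in LMP8 more often than peaks of like strength in general.

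In the other direction, 7 genes (0.0324%) held at least 5 more LMP8-only peaks than expected, and Ifi207 alone held at least 10 more. At least 5 fewer were held by 3 genes. Ifi207 belongs to the Ifi200 genes, interferon-induced sensors and regulators that sit side by side on chromosome 1. Its span (chr1:173723424-173741831) had 19 peaks in LMP8 and 15 of them were absent from HP109, where 3.76 were expected. HP109 had 4 peaks in the gene, mi8 had 15 and OE had 3. Of the 15, 10 had a peak in mi8 and 0 in OE, so those 10 intervals had peaks in both controls and in neither Pcgf6 vector. Such a split was common at that strength. Among all LMP8-only peaks with a −log10 q from 4.47 to 5.07, 62.4% had a peak in mi8 and 11.1% in OE. The 15 peaks at Ifi207 were weak, with a median −log10 q of 4.47, a highest of 9.25 and 10 reads at the median summit. The longest run of LMP8-only peaks in the genome, 6 in 6.42 kb (chr1:173720919-173727339), was at the far end of the gene. Ifi200 genes are close copies of one another, and the labels do not say how reads that fit several copies were placed.

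The other genes of largest LMP8 excess included Hivep3, a zinc finger protein (12 of 60 peaks, 4.20 expected), Osbpl8 (21 of 68, 13.4 expected), the Src-family kinase Lyn (15 of 63, 7.64), Atp2b1 (20 of 65, 13.2), the myosin Myo1e (11 of 55, 5.78) and Fndc3a (9 of 45, 3.90). Then followed Arhgef3, the scaffold Iqgap1, Stard13, Cd44, Lrrfip1, Emp1, Prr5l and Gse1, with 6 to 14 LMP8-only peaks each. Cd44 had 14 of 61, where 9.62 were expected, and Plek 11 of 49 (7.61). Thus Cd44, Plek, Atp2b1 and Osbpl8 were below expectation for HP109-only peaks and above it for LMP8-only peaks. The genes furthest below expectation for LMP8-only peaks were Pde4d, a phosphodiesterase of cyclic AMP, with 2 (7.91 expected), the scavenger receptor gene Cd36 with 2 (7.35), the protocadherin gene Pcdh7 with 0 of 42 peaks (5.14), Cdh23 with 4 (8.71) and Plxdc2 with 3 (7.58). Of these, Pde4d, Cd36, Cdh23 and Plxdc2 were above expectation for HP109-only peaks, whereas Pcdh7 had 11 where 12.1 were expected. The next were Mitf with 3 (6.49), Mpp7 with 0 (3.40), Exoc4 with 1 (4.25), Hdac4 with 1 (4.12) and Bbx with 0 (3.09). None of these 5 was clearly above expectation for HP109-only peaks: Mitf had 20 (20.0 expected), Mpp7 4 (6.77), Exoc4 14 (14.7), Hdac4 12 (13.7) and Bbx 5 (9.32).

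Among the gene lists, interferon-stimulated genes stood furthest from expectation. Within 10 kb of its 66 genes, LMP8 had 460 peaks and 73 of them were absent from HP109, where 36.3 were expected, a ratio of 2.01. HP109 had 459 peaks there, nearly the same number, and 61 were absent from LMP8 where 98.1 were expected, a ratio of 0.622. With equal numbers of peaks in both lists the ratios were 1.86 and 0.636. Of the 73 LMP8-only peaks, 52 had a peak in mi8 (71.2%, against 58.4% of all LMP8-only peaks) and 4 in OE (5.48%, against 10.4%). Without Ifi207, 59 LMP8-only peaks remained where 32.9 were expected (1.80). Peaks at Ifi207 that also lay within 10 kb of another listed gene stayed in this count. The list and the Ifi family were chosen with results of these data known, so the direction is no independent evidence.

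Together, the list and the Ifi genes made up 82 genes, of which 42 lay above expectation and 36 below for LMP8-only peaks, and 20 above and 61 below for HP109-only peaks. No such split over all genes is given to set beside it. Where fewer than 1 peak was expected, a single peak put a gene above and none put it below. Margins of neighbouring genes overlap, so a peak can count for more than 1 gene. After Ifi207 the largest excess was at Ifi44, whose 6 LMP8 peaks within 10 kb included 5 absent from HP109 (0.818 expected) and all 5 were in mi8. Its neighbour Ifi44l had 2 of 7. Cmpk2, a nucleotide kinase, had 4 of 8 (1.39 expected), and the adjacent antiviral gene Rsad2, which encodes viperin, had 2 of 11 (0.766). Rtp4, another interferon-induced gene, had 4 of 14 (1.56). Ifi206 had 3 (0.574 expected), and Ifit2, which binds viral RNA, had 3 of 10 (1.13), led by a −log10 q of 10.6. Ifi204 also had 3 (0.763 expected), but its margin overlaps Ifi207 and these are not separate peaks. All 17 LMP8-only peaks of the 100 kb step from 173.7 Mb lay within 10 kb of Ifi207, and the step from 173.8 Mb had 0.

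Among other genes of the pathway, Irf9, a DNA-binding factor of the type I response, had 1 LMP8-only peak of 3 (0.0325 expected). Stat2 had no LMP8-only peak, and neither had the receptor chain gene Ifnar2 nor Ifnb1, the interferon beta gene. Samhd1, which depletes nucleotides against viruses, had 6 HP109-only peaks of 16 (4.03 expected) and 1 LMP8-only peak of 11.

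**Figure D4:**
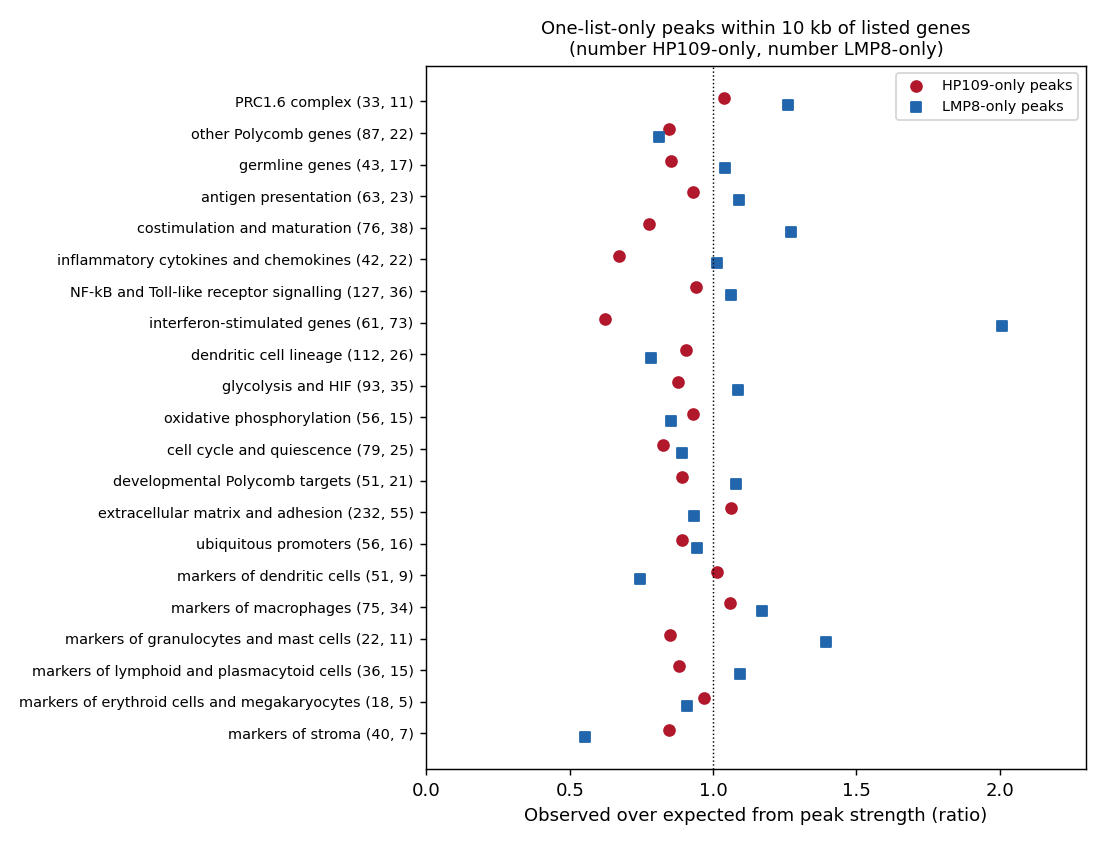
Ratio of observed to expected peaks in 1 list only within 10 kb of the genes of 21 lists, for HP109-only (red circles) and LMP8-only peaks (blue squares). Numbers of such peaks stand beside each name, HP109 first. Interferon-stimulated genes lie at 0.622 and 2.01, and the dotted line marks a ratio of 1.

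Other immune lists had fewer HP109-only peaks than expected, but this was not particular to immune genes. The ratio was 0.826 for cell cycle and quiescence, 0.854 for germline genes and 0.893 for ubiquitous promoters. Only PRC1.6 genes (1.04), extracellular matrix and adhesion (1.06) and the markers of dendritic cells (1.01) and macrophages (1.06) lay above 1. Inflammatory cytokines and chemokines had 42 of 308 (62.5 expected, ratio 0.672), and their LMP8-only peaks, 22 of 286, were near expectation at 1.01. Costimulation and maturation genes had 76 of 382 HP109-only peaks (ratio 0.775) and 38 of 338 LMP8-only peaks (1.27), with Cd44, Cd40 and Cd83 in the lead for LMP8. Antigen presentation (ratios 0.931 and 1.09) and NF-kB and Toll-like receptor signalling (0.942 and 1.06) lay closer to 1. Dendritic cell lineage genes had ratios of 0.905 and 0.785.

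At genes of PRC1.6 and its known targets, one-sided peaks were about as common as peak strength gave, or somewhat off it. The 19 genes of the complex had 33 HP109-only peaks of 145 (31.8 expected, ratio 1.04) and 11 LMP8-only peaks of 122 (8.71 expected, ratio 1.26), and an end peak in both lists at all 19. Germline genes had 43 of 197 (50.3 expected) and 17 of 177 (16.3 expected). Developmental Polycomb targets had 51 of 162 (57.2 expected) and 21 of 128 (19.4 expected). The extracellular matrix and adhesion list had 232 of 762 HP109-only peaks, a ratio of 1.06, which was below 1 without Fn1 (171 of 696, 0.922). For the remaining lists the HP109 ratio lay between 0.826 (cell cycle and quiescence) and 1.06 (markers of macrophages). The LMP8 ratio of those lists ran from 0.554 (markers of stroma, 7 peaks) to 1.39 (markers of granulocytes and mast cells, 11 peaks).

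Among families defined by their symbols, with at least 10 peaks expected, the HP109 ratio ranged from 0.434 to 1.31 over 79 families, with a median of 0.969. The highest were keratins (1.31), Sox transcription factors (1.26), laminins (1.22), vomeronasal receptors (1.16) and cadherins (1.16). Sox5 accounted for 23 HP109-only peaks (16.7 expected) and Cdh23 for the 37 given above, while single keratins and vomeronasal receptors had at most 3. The lowest were the calcium-binding S100 proteins (0.434), the Ms4a membrane proteins (0.488), the Ifit and Ifitm genes (0.501), a group of cystatin symbols (0.501) and C-X-C chemokines (0.607). The cystatin symbols also took in Cstf1 and Cstf3, which encode factors of mRNA cleavage, so that ratio is not one of protease inhibitors alone. For LMP8 the range over 58 families was 0.575 to 2.31, with a median of 1.02. Interferon-inducible Ifi genes were highest with 40 peaks where 17.3 were expected (2.31), followed by Eph receptors and ephrins (1.59), proteasome genes (1.45), Trim genes (1.41) and Sox (1.37). C-type lectins (0.575), collagens (0.614), interleukins (0.631), aldehyde dehydrogenases with aldo-keto reductases (0.688) and tRNA synthetases (0.707) were lowest. Interleukins were low although Il12b, the shared subunit of interleukins 12 and 23, had 2 of its 3 LMP8 peaks absent from HP109 (0.236 expected).

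At gene ends the one-sided peaks were few. An end peak in HP109 with no LMP8 counterpart was found for 555 genes (2.57%), and the reverse for 148 (0.684%). These are counts of genes, and a peak at an end shared by several, as among the Pcdhga and Pcdhgb genes, counts for each. Of the 555, 313 had a peak in mi8 at the same interval, 80 in OE, and 232 in neither; of the 148, 89 did in mi8, 11 in OE, and 59 in neither. The strongest HP109 case was at the far end of Tmem269 (−log10 q 21.7, 18.8 in mi8, 17.9 in OE). The next with the peak at an annotated start was Acp4, an acid phosphatase (20.9, 16.6 and 11.3 in the same order). The peak at Ldha, which makes lactate dehydrogenase, was at its far end and not at its start. Dhx32, an RNA helicase gene, had a start peak of 19.0, 11.9 in mi8, inside the neighbouring gene Fank1. Tbx15, Gm867, Riiad1, Nppb, Rab39b and A530032D15Rik followed with values from 17.7 to 18.9. At A530032D15Rik the fold was 4.20 with 58 reads at the summit.

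Further HP109-only ends were those of Ano7 (17.3), the mevalonate pathway enzyme Pmvk (16.9), Olfr963 (16.5), Papln (16.4), Gm13287 (16.3), the splicing factor Rbfox2 (16.2), the neurotrophic factor Cntf (16.1), Rtl9 (15.7) and Bmper, a regulator of BMP signalling (15.6). All 9 had a peak in mi8 too. At Cntf the nearest LMP8 peak was 196 bp away, while at Rbfox2 it was 69172 bp away.

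The LMP8-only ends were weaker. They were led by a peak at Ifi44 (11.4, 33.3 in mi8, none in OE), H2-Q10, a class Ib MHC gene (10.3, 19.3 in mi8), Olfr9 (9.99) and Btnl2, a butyrophilin-like T cell inhibitor (8.68). Next were Rxfp1 (8.23), Hopx and Macroh2a2 (7.65 each), Creb3l4 (7.24) and Fam131c (7.10). Values from 6.29 to 6.90 were found at Fem1al, Sit1, Psors1c2, Asphd2, Nme4, Antxr1, Slc25a21, Olfr522, Cnksr1, Ly6c1, a surface protein of monocytes, and Rfx4. Of these, Psors1c2 and Slc25a21 had a peak in OE.

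Of the 631 different genes in the lists, 22 (3.49%) had an HP109-only end, close to the 2.57% of all genes, and 6 (0.951%) an LMP8-only end against 0.684%. In HP109 they included 4 Hox genes, Hoxa7 (7.46), Hoxc10 (6.63), Hoxd9 (5.54) and Hoxa10 (3.78), which set position along the body axis and are classical Polycomb targets. With Tbx15 (18.9), a limb and skeletal factor, these made 5 of the 44 developmental targets. Hoxa7, Hoxd9 and Hoxa10 also had a peak in mi8. Over the whole Hox family, beyond the list, 7 of 39 genes had an HP109-only end and 1 an LMP8-only end. The other HP109 cases were Hoxd11 (7.62), Hoxc5 (5.38) and Hoxa11 (3.07). Set against peak strength, the family had no clear HP109 excess. Within 10 kb, 19 of 50 HP109 peaks were absent from LMP8 (18.3 expected, ratio 1.04). In the other direction it was 7 of 33 LMP8 peaks (3.61 expected, ratio 1.94). Further list members with an HP109-only end are given next. Others were Cttn, a regulator of actin (20.3), Sparcl1 (15.02), the plasmacytoid receptor gene Siglech (12.7), the neutrophil gene Ngp (9.80), the Polycomb reader Cbx6 (6.73), the germline gene Tdrd6 (6.48) and Pdgfra (6.42). Elane, Cd79b, Alpl, Ywhaz, Cd70, Cd3g, Itga2b, Hba-a1 and Cd209a lay between 2.38 and 5.47. The LMP8-only members besides Ifi44 and H2-Q10 were Lama2 (3.63), Tuba3b (2.09), Cdx2 (1.97) and the germline gene Tdrd5 (1.55), all near the lower limit of the list.

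**Figure D5:**
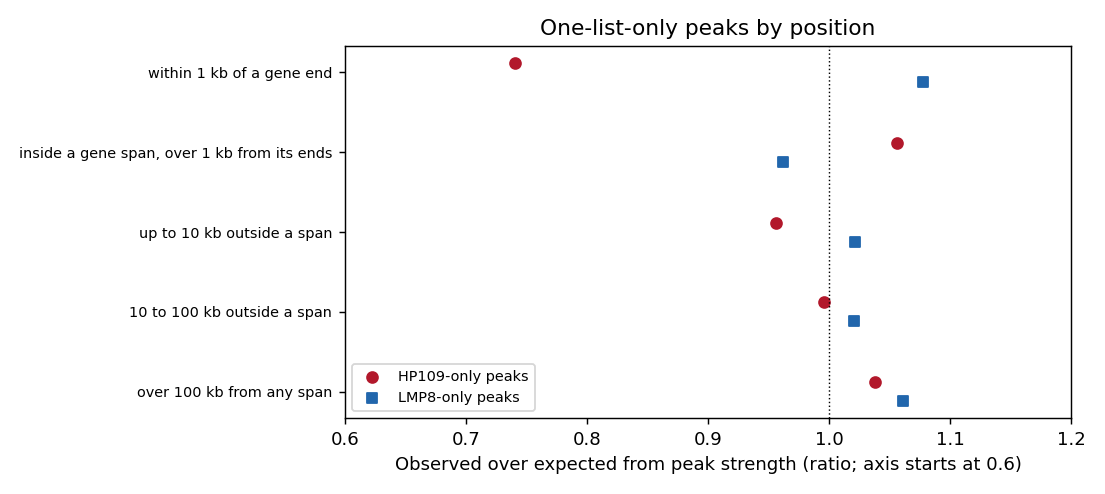
Ratio of observed to expected peaks in 1 list only in 5 classes of distance from protein-coding genes, for HP109-only (red circles) and LMP8-only peaks (blue squares); the axis starts at 0.6 and the dotted line marks 1. The HP109 ratio at gene ends is 0.741, and the other 9 ratios lie between 0.956 and 1.08.

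By position, HP109-only peaks were below expectation at gene ends (2953 where 3987 were expected, 0.741) and slightly above it inside genes (1.06), while LMP8-only peaks had ratios of 1.08 and 0.962. Distal peaks, more than 10 kb from any protein-coding span, made up 26.3% of HP109-only peaks (10687) and 25.8% of all HP109 peaks. For LMP8 the shares were 26.4% (2994) and 25.7%. The ratios for distal peaks were 1.01 and 1.03, close to what peak strength alone gave. Over 100 kb from any gene they were 1.04 and 1.06.

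The strongest distal HP109-only peak lay 21.0 kb from Ccne1, the cyclin E1 gene (chr7:38128325-38128628, −log10 q 32.2, 12.8 in mi8, 13.7 in OE). Others were 12.6 kb from Prdm15 (chr16:97778663-97778969, 29.3), 11.6 kb from Galnt9 (28.0), 92.8 kb from Tbl1x (27.5), 28.0 kb from Mns1 (27.5), 16.1 kb from Adgb and 15.1 kb from Mfsd14b (26.6 each). Far from genes, the strongest were 380 kb from Nr2f2 (chr7:69971530-69971790, 28.0), 561 kb from Cxadr (chr16:77740355-77740710, 27.4), 449.5 kb from Zfp462 (27.4), and 471 and 282 kb from Pex2 (26.6 and 26.2). The last had 128 reads at the summit and a fold of 3.18, again a site of high background. The Cxadr interval had a peak in OE and none in mi8.

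Distal LMP8-only peaks were led by one 17.8 kb from S100a6 (chr3:90632119-90632291, 16.1, 7.50 in mi8). Next were peaks 115 kb from Pde4d (chr13:108538764-108538927, 15.9, 16.6 in mi8, 22.9 in OE), 113 kb from Rapgef5 (13.6), 19.0 kb from Itprid2 and 19.5 kb from Slc25a24 (13.6 each), and 46.5 kb from Gpbp1 (12.8). Peaks 129 kb from Atp2b1, 16.6 kb from Pcdh1, 25.8 kb from Gm21119 and 46.3 kb from Snx10 (12.5 each) completed the first 10. Of all distal LMP8-only peaks with no gene within 100 kb, the 5 strongest were those at Pde4d, Rapgef5 and Atp2b1 and 2 weaker ones, 153 kb from Mki67 (11.8) and 438 kb from Jarid2 (11.7), a Polycomb cofactor, level with one 169 kb from Ppp1r3b (11.7). A further one lay 133 kb from Atp2b1 (10.6). At Rapgef5 the nearest HP109 peak was 92 bp away.

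Regional counts in 500 kb windows placed the same genes in context. Of 4320 windows with HP109 peaks, 12 had at least 10 more HP109-only peaks than expected, and 8 had at least 10 fewer. At a limit of 5 peaks, 144 windows lay above and 173 below. The window at 71.5 to 72 Mb of chromosome 1 (Fn1 and Atic) had 84 of 140 (50.8 expected), and 7 of the 84 were in mi8 and 0 in OE. Windows at Cdh23 (50 of 128, 34.9 expected), Sfi1 (32 of 79, 17.5), Esr1 (29 of 55, 15.9) and Plekhg1 with Mthfd1l (38 of 71) followed. Those at Sfi1, Esr1 and Plekhg1 had a median background of 18.7 to 21.9 reads under their HP109-only peaks. The window of the lectin genes Clec4a4 to Clec4e and of Vmn2r19 to Vmn2r21 had 49 of 106 (36.2 expected) at a background of 1.35 reads, and 28 of the 49 were in OE. Windows around Crispld2 (60 of 120, 47.6), Syne1 (33 of 64, 21.4), Slc7a11 (39 of 78, 27.6) and Rrbp1 (42 of 83, 31.2) completed the first 10.

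For LMP8, 5 of 4156 windows had at least 10 more one-sided peaks than expected, and 0 had at least 10 fewer. At a limit of 5 peaks, 45 windows lay above and 9 below. The Ifi200 cluster at 173.5 to 174 Mb of chromosome 1 was first, with 22 of 81 (7.91 expected), of which 16 were in mi8 and 0 in OE. It was followed by a gene-dense window from Mypop to Exoc3l2 that holds the AP-1 gene Fosb (20 of 115, 8.28), and windows of Iqgap1 (22 of 129, 10.5), Atp2b1 (26 of 112, 14.8) and Fndc3a (19 of 92, 7.77). Osbpl8 (33 of 165), Smc4 with Trim59 (21 of 93), a histone gene cluster with Fcgr1, the high-affinity Fc receptor (15 of 94, 6.64 expected), Il12b with Ublcp1 (12 of 45, 4.08) and Mkln1 (21 of 120) came next. None of the 12 LMP8-only peaks in the window of Il12b and Ublcp1 was in OE, and 7 were in mi8. Over all LMP8-only peaks 10.4% were in OE and 58.4% in mi8. Across chromosomes the ratio ran from 0.940 (chromosome 19) to 1.07 (chromosome 9) for HP109 and from 0.885 (14) to 1.13 (7) for LMP8.

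Promoter windows such as those printed above were used to describe sequence. Of 32619 windows, 483 (1.48%) had an HP109 peak only and 193 (0.592%) an LMP8 peak only. HP109-only windows were poorer in CpG than shared ones of the same strength, with a mean observed over expected CpG of 0.423 against 0.555, and a mean GC content of 55.1% against 59.0%. In LMP8 these were 0.517 against 0.506 and 58.2% against 57.7%. The E-box CACGTG, which Max and Mga bind, was in 5.38% of HP109-only windows, 9.11% of shared ones of the same strength and 7.20% of all. GCGGGAA, an E2F motif, was in 4.35%, 7.21% and 4.63%. In LMP8-only windows CACGTG was in 6.74% and GCGGGAA in 6.74%, against 8.09% and 6.55% of shared windows of the same strength. For interferon response only a single strict form was searched, GAAA repeated after a gap of exactly 2 bases. It was in 4.55% of HP109-only windows against 4.26% of shared ones of the same strength. In LMP8-only windows it was in 2.59% against 2.98%, and in 3.46% of all. All motifs were searched on both strands, and a match is letters only. Of the 3 windows printed above, Sema4a held GCGGGAA, and none of the 3 held CACGTG or the strict GAAA form. Looser forms of an interferon-response element were not searched, so their absence, at Ifi44 too, is not shown.

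Within 1 kb of 1005 miRNA hairpins, 31 (3.08%) had an HP109 peak only and 8 (0.796%) an LMP8 peak only. The strongest HP109 case was Mir342, which lies inside the gene Evl (−log10 q 16.7, 12.4 in mi8, 7.36 in OE). The strongest LMP8 case was Mir7-2 (10.1, no peak in mi8 or OE). Their mature RNAs are given with the seed, bases 2 to 8, in capitals (RefSeq, GRCm38.p6).
mmu-miR-342-5p: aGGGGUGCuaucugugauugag
mmu-miR-342-3p: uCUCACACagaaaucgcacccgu
mmu-miR-7a-5p: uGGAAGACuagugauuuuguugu
mmu-miR-7a-2-3p: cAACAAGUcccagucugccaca

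The 4 seeds differ from one another. Mir146, whose miR-146a restrains Toll-like receptor signalling, had a weak HP109-only peak (5.37) found with no other vector. The remaining LMP8-only hairpins were Mir199a-1 (4.83), Mir5123 (4.34), Mir3082 (4.04), Mir182 (3.32), Mir378c (2.80), Mir6386 (2.68) and Mir1927 (2.07), all weak peaks.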

How the data were processed

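ATAC-seq was deposited as 1 narrowPeak list per vector, each standing for 2 libraries called against the single input library, on mm10. BWA, Picard and MACS2 were used, per the submitters' processing notes; versions, thresholds and pooling were not stated there. The authors deposited a score, the fold of the summit over background (a ratio), −log10 p and −log10 q per peak. The name of each list marks the input as mi8 and the data as downsampled, and how the downsampling was done was not stated. Depth per library is unknown. Intervals listed several times were collapsed to the highest −log10 q. A peak is absent where no peak of the other list overlaps it by 1 bp.

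Summit reads and background were recovered from fold and p as a Poisson tail, and a whole read number matched within 0.001 for 100% of peaks. Expected absence came from 20 equal strength bins. Counts inside genes used summits in RefSeq spans, and lists and families allowed 10 kb on each side. Gene spans carry no exons. Of 655 list entries 654 were found (Cxcl11 was not).

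Members, lists and families were chosen with earlier results of these data known. Named were, per direction, the 20 strongest ends, the 15 genes of largest excess, the 10 strongest distal peaks and 5 far from genes, 5 highest and lowest families, 10 windows and all list members with a one-sided end; other genes were chosen after their values were seen. Python 3.11.15, pandas 2.3.3, numpy 2.4.6 and scipy 1.17.1 were used.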

Additional observations from a re-analysis of the deposited data

Results flagged for a closer look

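Chromosome Y was left out of the comparison. The HP109 list had 26 peaks there and the LMP8 list 19, a signal in data that the comparison did not use, and the difference was not tested.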

How the results depend on the processing

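No paired analysis was possible because each vector has 1 list for both libraries, and for the same reason no library could be left out. Of 42 other settings tried on the main counts and shares, 21 moved a value by over 1.5 times or, for a share, beyond its interval. HP109 peaks absent from LMP8 numbered 21263 with equal numbers of peaks. LMP8 peaks absent from HP109 numbered 6507 when peaks within 500 bp counted as shared, 6345 and 2691 at a −log10 q of at least 5 and 10, and 20171 with equal numbers. Genes with an HP109-only end numbered 296 with equal numbers and 356 at the start alone (17274 genes with a strand), and LMP8-only ends 381 with equal numbers. HP109-only peaks beyond strength numbered 296 with 10 bins, 428 with 50 bins, 325 with strength by fold, and 89 and 1480 with limits of 2% and 10%; for LMP8 those limits gave 150 and 1263. The distal share was 12.01% (HP109) and 11.9% (LMP8) over 50 kb from a span, and 38.0% and 39.2% over 1 kb, which are other definitions; it was 27.2% for HP109 with equal numbers and 28.7% for LMP8 at a −log10 q of at least 5. The cause of these shifts was not tested beyond what each setting removes.

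Another 23 settings were chosen after seeing the data. The interferon-stimulated ratios lay between 1.80 and 2.42 for LMP8 and between 0.515 and 0.636 for HP109 in the settings tried on them. The Fn1 excess was 14.4 peaks with equal numbers and 30.3 with peaks within 500 bp shared, against 23.3. The ratio of the extracellular matrix list was reversed without Fn1, at 0.922. Weak peaks rest on few reads, down to 6 at the summit, which limits their precision.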
